A study of Mus musculus with 63 samples.

Results

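Hearts of mice that overexpress a human mitofusin 2 mutant, Mfn2AA, were compared with hearts of the tet-off control line at postnatal day 21 (P21, 3 weeks), near weaning. The comparison took every P21 library of these genotypes, 6 Mfn2AA and 5 tet-off, so 11 of the 63 libraries of the series. Both groups are FVB/N in strain background and labelled left ventricle. The Mfn2AA label names the human protein with its T111A/S442A substitutions, in which alanine replaces a threonine and a serine. The tet-off label names the driver line of the tetracycline-off system alone, in which a transactivator switches on a responder transgene in the absence of the drug. The labels do not name the promoter of the driver, nor the cells in which it acts. All 11 libraries belong to the P21 library batch, together with 6 libraries that overexpress unmutated human mitofusin 2 (Mfn2wt) and 6 nontransgenic ones, also of FVB/N background and left ventricle. Against tet-off hearts, Mfn2AA hearts ask what the mutant protein adds to its driver. A number in the library titles, described below, largely follows genotype in these libraries, so the part of each cannot be told apart.

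Mitofusin 2 sits in the outer mitochondrial membrane, where it tethers and fuses mitochondria. On damaged mitochondria the kinase PINK1 phosphorylates it, and the phosphorylated form binds the ubiquitin ligase Parkin, which marks the organelle for removal by autophagy (mitophagy). The alanine substitutions take away residues that PINK1 phosphorylates. In the heart of the young mouse this pathway is studied around birth and weaning, when cardiac mitochondria shift from a fetal type that uses carbohydrate to an adult type that burns fatty acids.

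Polyadenylated RNA was sequenced from single ends without strand information, so reads of overlapping and antisense genes cannot be told apart. Total counts ran from 6759052 to 14952713 in Mfn2AA libraries and from 11137353 to 14558036 in tet-off libraries. Levels are CPM, counts scaled to library size, and log2 fold changes, Mfn2AA minus tet-off, are given ± SE with Benjamini-Hochberg adjusted p-values from edgeR. Values of single hearts are given in the order of the library titles, as hearts 1 to 6 for Mfn2AA and 1 to 5 for tet-off. The titles hold a further number that the labels do not explain, and tet-off heart 1 carries the one of all Mfn2AA libraries, while tet-off hearts 2 to 5 share another. Nothing in the labels says that libraries come from separate mice, so p-values measure the spread between these libraries. Ventricular markers were abundant, with summed levels of 14 ventricular genes of 68864 to 102814 CPM in Mfn2AA and 73210 to 109540 in tet-off hearts. Atrial markers, 16 genes, summed to 656 to 1092 CPM in 7 hearts and far higher in the other 4, with 5600, 9069 and 6396 in Mfn2AA hearts 3, 4 and 6 and 11929 in tet-off heart 2. Of the lung markers, Sftpc and Sftpd had no read in any of the 11 libraries.

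**Figure D1:**
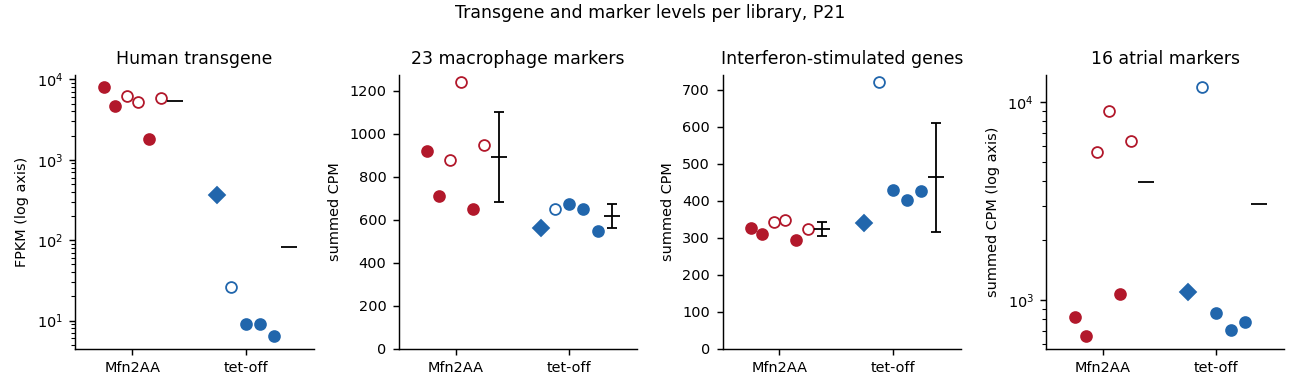
Level of the human transgene (FPKM, log axis) and summed levels of 3 gene lists (CPM, the atrial panel on a log axis) in each P21 library, red for Mfn2AA (n = 6) and blue for tet-off (n = 5). Each symbol is 1 library, the diamond is tet-off heart 1, open symbols are the 4 libraries with high atrial markers, and black bars give the mean, with the SD in the 2 linear panels. All Mfn2AA libraries lie above all tet-off libraries for the transgene, and the interferon panel has 1 tet-off library at 720 CPM.

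The human transgene, listed only in the table of FPKM (a level scaled to transcript length and library size), stood at 8051, 4644, 6182, 5268, 1834 and 5933 FPKM in the Mfn2AA hearts. It was 362, 26.0, 9.01, 9.13 and 6.36 FPKM in the tet-off hearts. The groups did not overlap (difference of 7.69 in mean log2, exact two-sided permutation p = 0.00216, the smallest this design allows). Within each group 1 heart stood apart: Mfn2AA heart 5 held the lowest level of its line, and tet-off heart 1 held the highest of its line by far. Mouse Mfn2 (chromosome 4, 147873595 to 147904819, build mm10, as all positions below) was counted at 1162, 1176, 1136, 956, 1271 and 1090.1 CPM in the Mfn2AA hearts and 1200.3, 812, 1061, 924 and 1337 in the tet-off hearts. It did not pass the test (log2 fold change of 0.09 ± 0.12, adjusted p = 0.846), and reads of the human transgene that aligned to it cannot be separated from its own. Pink1, the kinase gene, had a log2 fold change of 0.19 ± 0.12, adjusted p = 0.587, and Park2, which encodes Parkin, a log2 fold change of 0.02 ± 0.18, adjusted p = 0.983.

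Between Mfn2AA and tet-off hearts 78 of 13585 genes tested differed (0.574%), 42 higher in Mfn2AA (0.309%) and 36 lower (0.265%), by edgeR's quasi-likelihood test at an adjusted p under 0.05. Of the 78, 27 differed at least 2-fold, and for 33 the levels of the 2 groups did not overlap, 16 higher and 17 lower. Over all genes tested, 189 had groups that did not overlap (1.39%). The median log2 fold change of all genes tested was -0.0063. The rises included Lyz2, Mpeg1, H2-Aa, Cd74, Timp1 and Serpina3n, and the falls Grb10, Pnpla3, Adamts14, Nes, Ccnd1 and Mcm5. Called genes that stand together below without a count of their list were grouped by known role after their values were seen. The number of calls moved with single libraries. It was 43, 12 and 10 without Mfn2AA hearts 3, 4 or 6, 395 without tet-off heart 1, and 12, 16 and 17 without tet-off hearts 3, 4 or 5. All 78 genes were among the 395, and the 12 and 10 genes left without Mfn2AA hearts 4 or 6 were all among the 78. Calls that held without any single library included those of Olfr541 (adjusted p up to 6.16e-05), Scgb1c1 (0.00365), Adamts14 (0.00547), Grb10 (0.0144), Fam212b (0.0298), Lyz2, Mpeg1 and Sord (0.0303) and Gpr137c (0.0388). Those of H2-Aa (up to 0.0852), Cd74 (0.0644), Serpina3n (0.0852), Smim3 (0.0648) and Ccnd1 (0.0852) were lost without Mfn2AA hearts 4 or 6 or tet-off hearts 3, 4 or 5. Nes (0.0724) lost its call without the first 4 of these libraries, Pnpla3 (0.0644) without Mfn2AA heart 6 or tet-off heart 3, and Mthfd2 (0.1001) and Timp1 (0.116) without these 5 or Mfn2AA hearts 1 or 3.

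Of 23 macrophage markers tested, 5 rose, none fell, 20 had a positive fold change and the median was 0.48, against -0.0063 over all genes. Macrophages are the resident phagocytes of the heart, where they clear dying cells and cast-off mitochondria. Lyz2, the lysozyme of myeloid cells (chromosome 10, 117277541 to 117282272), stood at 157, 94.2, 145, 248, 93.6 and 155 CPM in the Mfn2AA hearts and 71.2, 63.5, 68.1, 68.5 and 46.0 in the tet-off hearts. Every Mfn2AA heart lay above every tet-off heart, with Mfn2AA hearts 2 and 5 lowest of their line. The rise was a log2 fold change of 1.23 ± 0.21, adjusted p = 0.00683, and the call was lost in 2 of 24 alternative settings. Mpeg1, which encodes the pore-forming perforin-2 of macrophages (chromosome 19, 12460779 to 12465285), stood at 33.2, 18.6, 26.6, 37.6, 20.3 and 36.8 CPM in the Mfn2AA hearts and 14.5, 11.8, 14.2, 12.6 and 11.4 in the tet-off hearts. Here too the groups did not overlap (log2 fold change of 1.15 ± 0.20, adjusted p = 0.00683, lost in 2 of 24 settings). Csf1r, the receptor for the growth factor that keeps macrophages alive, rose by 0.48 ± 0.11, with groups that did not overlap (109 to 170.4 against 87.8 to 108 CPM, adjusted p = 0.0446).

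Gpnmb, a membrane glycoprotein of phagocytes, was at 2.81, 0.532, 4.13, 4.18, 0.419 and 2.81 CPM in the Mfn2AA hearts and 0.334, 1.01, 0.0720, 0.150 and 0.166 in the tet-off hearts. Its level was at 2.81 to 4.18 CPM in 4 Mfn2AA hearts and near the tet-off level in Mfn2AA hearts 2 and 5 (log2 fold change of 2.84 ± 0.61, adjusted p = 0.0334). The lysosomal protease Ctss had a log2 fold change of 0.85 ± 0.20, adjusted p = 0.0482, with levels of 18.5 to 46.6 against 13.0 to 20.2 CPM. Trem2, a lipid-sensing receptor of phagocytes that was on no list, rose by 1.06 ± 0.22 with groups that did not overlap (4.95 to 11.9 against 2.69 to 4.62 CPM). Other leukocyte genes among the calls were the cytokine receptor chain Csf2rb (1.07 ± 0.21), the adaptor Blnk (0.92 ± 0.18), the leukocyte myosin Myo1f (0.77 ± 0.16), the dipeptidase Dpep2 (1.26 ± 0.29) and Sirpa, the receptor for the signal CD47 (0.38 ± 0.09). Their adjusted p-values were 0.0236, 0.0217, 0.0337, 0.0446 and 0.048. Among markers that missed the threshold, the lectin Lgals3 had the smallest p (1.54 ± 0.40, adjusted p = 0.0639) and the integrin Itgam the next (0.62 ± 0.19, adjusted p = 0.122).

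Summed over the list, macrophage markers stood at 918, 710, 881, 1242, 652 and 947 CPM in Mfn2AA hearts and 562, 653, 674, 652 and 550 in tet-off hearts. The highest sums, apart from Mfn2AA heart 1, came from the 3 Mfn2AA hearts with high atrial markers, while tet-off heart 2, with the highest atrial sum, had 653. Without these 4 libraries, a setting chosen after the data were seen, 0 of 22 macrophage markers were called by edgeR, 7 had an unadjusted p under 0.05 and their median was 0.24, and with the log2 atrial sum as a term 4 of 23 rose, with a median of 0.46. The 5 calls became 2 without Mfn2AA heart 3, 4 or 6 or tet-off heart 3, 4 or 5, 3 without Mfn2AA heart 1 or tet-off heart 2, and 2 in a fit of the 11 libraries alone. The median stayed between 0.40 and 0.54 with single libraries left out. In whole tissue, more cells of a type and more RNA per cell cannot be told apart. Markers of lymphocytes and granulocytes had 0 of 7 called by edgeR or DESeq2, 1 at an unadjusted p under 0.05 and a median of -0.06, and summed to 17.0 to 25.9 CPM in Mfn2AA against 17.0 to 36.8 in tet-off hearts.

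Of 34 lysosome genes tested, 33 had a positive fold change, with a median of 0.14, and 2 rose, Ctss and Gpnmb, which are also macrophage markers. Both calls were lost without Mfn2AA heart 3, 4 or 6 or tet-off heart 3, 4 or 5 (8 to 12 genes of the list at an unadjusted p under 0.05 by edgeR), in a fit of the 11 libraries alone (10) and without the 4 libraries with high atrial markers (4). Without tet-off heart 1 there were 4 calls, with Mfn2AA heart 2 left out 3, and without Mfn2AA heart 1 or tet-off heart 2 there was 1. The median ran from 0.14 to 0.19 with single libraries left out. Lysosomes are where autophagy delivers organelles for digestion. The protease Ctsl was at 184 to 228 against 143 to 173 CPM without overlap but missed the threshold (log2 fold change of 0.34 ± 0.08, adjusted p = 0.0547), as did the hexosaminidase Hexa (log2 fold change of 0.27 ± 0.08, adjusted p = 0.107). Of 35 genes of mitophagy and the PINK1-Parkin pathway none was called by edgeR, with a median of 0.02, 4 at an unadjusted p under 0.05 and 1 higher by DESeq2. The smallest p of that list belonged to Gabarapl1, which encodes an autophagosome protein, at 103, 87.0, 88.5, 95.7, 95.0 and 101 CPM in the Mfn2AA hearts and 79.4, 73.2, 64.5, 68.7 and 65.0 in the tet-off hearts. Its groups did not overlap, and it missed the threshold (log2 fold change of 0.44 ± 0.11, adjusted p = 0.0643).

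Of the class II genes of antigen presentation, H2-Aa, H2-Ab1 and Cd74 rose. The class II proteins H2-Aa and H2-Ab1 form the dimer that shows peptides to helper T cells, and Cd74, the invariant chain, guards its groove until it reaches the endosome. H2-Aa (chromosome 17, 34282751 to 34287771) stood at 18.99, 11.1, 15.96, 31.6, 10.9 and 21.2 CPM in the Mfn2AA hearts and 8.30, 13.3, 7.35, 6.75 and 8.04 in the tet-off hearts. The ranges overlapped through tet-off heart 2 (log2 fold change of 1.06 ± 0.22, adjusted p = 0.0259). H2-Ab1 (chromosome 17, 34263227 to 34269418) stood at 24.2, 13.9, 14.2, 23.02, 12.4 and 20.1 CPM in the Mfn2AA hearts and 11.1, 13.0, 8.43, 6.98 and 6.63 in the tet-off hearts, again with tet-off heart 2 highest of the tet-off hearts (log2 fold change of 0.95 ± 0.19, adjusted p = 0.0238). Cd74 was at 167, 83.7, 90.6, 150.4, 74.4 and 113 CPM in the Mfn2AA hearts and 59.6, 72.9, 57.2, 50.6 and 49.8 in the tet-off hearts. It had no overlap between groups (log2 fold change of 0.96 ± 0.18, adjusted p = 0.0182). These were the 3 calls among 20 genes of antigen presentation, all higher, while 14 of the 20 had a negative fold change and the list's median was -0.15. Other class II genes missed the threshold, H2-Eb1 at a log2 fold change of -0.50 ± 0.49 (adjusted p = 0.762), H2-DMa at -0.05 ± 0.21 (0.967) and H2-DMb1 at 0.31 ± 0.39 (0.827). All 3 calls were lost without Mfn2AA heart 4 or 6 or tet-off heart 3, 4 or 5 (9 to 12 genes of the list at an unadjusted p under 0.05 by edgeR). They were also lost without the 4 libraries with high atrial markers (7), where the median was 0.04, and in a fit of the 11 libraries alone (9), while 4 were higher and 1 lower without tet-off heart 1. Among class I genes, H2-T23 was at 6.33, 5.47, 13.7, 7.72, 5.16 and 12.8 CPM in the Mfn2AA hearts and 5.22, 36.1, 20.5, 22.9 and 14.6 in the tet-off hearts and H2-D1 at 134, 132, 88.1, 124, 110.2 and 89.8 CPM in the Mfn2AA hearts and 123, 76.6, 57.8, 71.1 and 85.7 in the tet-off hearts. H2-T23 was lower on average and H2-D1 higher, in both with tet-off heart 1 apart from the other tet-off hearts, and neither passed the test (log2 fold change of -1.21 ± 0.30, adjusted p = 0.0579 and log2 fold change of 0.44 ± 0.15, adjusted p = 0.161).

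Class II promoters carry a set of boxes in fixed order, among them one that resembles a cAMP response element and, closer to the start site, an inverted CCAAT box. The upstream sequence of H2-Aa is shown for this layout, from RefSeq, build GRCm38.p6, which is of strain C57BL/6J and not FVB/N, with TGACGTCA and the reversed CCAAT box, which reads ATTGG here, in capitals.
H2-Aa (chr17:34287824-34288073, strand -): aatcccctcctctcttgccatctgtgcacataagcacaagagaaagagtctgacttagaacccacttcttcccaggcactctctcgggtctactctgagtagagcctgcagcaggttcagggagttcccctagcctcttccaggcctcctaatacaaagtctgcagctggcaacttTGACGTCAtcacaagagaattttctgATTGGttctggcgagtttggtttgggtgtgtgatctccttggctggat
The first match starts 74 bases and the second 48 bases before the start site. Within 250 bases upstream, on either strand, TGACGTCA occurred in 1.55% and CCAAT in 33.8% of 32851 promoters. CCAAT was present in 76.5% of 17 promoters of antigen presentation genes, among them those of H2-Aa, H2-D1 and H2-T23. H2-Ab1 had no entry in the promoter table, and 53 of the 78 called genes had one.

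Serpina3n, Timp1, Trf and Sepp1, which encode secreted proteins, were also among the rises. Serpina3n, an acute-phase protease inhibitor (chromosome 12, 104406708 to 104414329), stood at 54.7, 9.35, 41.3, 39.5, 21.1 and 51.5 CPM in the Mfn2AA hearts and 14.3, 12.2, 7.20, 6.08 and 10.2 in the tet-off hearts. It was high in 5 Mfn2AA hearts and within the tet-off range in Mfn2AA heart 2 (log2 fold change of 1.84 ± 0.38, adjusted p = 0.0251). Timp1, the inhibitor of matrix metalloproteinases (chromosome X, 20870166 to 20874737), stood at 13.8, 2.96, 10.1, 14.7, 3.91 and 13.3 CPM in the Mfn2AA hearts and 4.08, 5.71, 2.23, 2.33 and 2.57 in the tet-off hearts. Here Mfn2AA hearts 2 and 5 stayed within the tet-off range and the other 4 hearts were above it (log2 fold change of 1.52 ± 0.35, adjusted p = 0.0446). Trf, transferrin, rose by 0.71 ± 0.17 and the iron exporter Slc40a1 by 1.03 ± 0.24. The selenium carrier Sepp1 rose by 0.52 ± 0.12 without overlap (239.7 to 395 against 187 to 214 CPM). Their adjusted p-values were 0.048, 0.0451 and 0.0447. Timp1 was the single call among 21 inflammatory cytokines, chemokines and related genes, of which 17 had a positive fold change, with a median of 0.51. The median was 0.23 without Mfn2AA heart 1, and Timp1 was not called without Mfn2AA heart 1, 3, 4 or 6 or tet-off heart 3, 4 or 5. Without Mfn2AA heart 2 or 5, 2 genes of the list were called. Spp1, osteopontin, was at 5.91, 0.380, 2.57, 2.38, 0.279 and 3.56 CPM in the Mfn2AA hearts and 0.268, 0.336, 0.864, 0.300 and 0.414 in the tet-off hearts, high in the same 4 hearts, and missed the threshold (log2 fold change of 2.40 ± 0.64, adjusted p = 0.0708). Of 17 complement genes none was called by edgeR, with 16 positive, a median of 0.35, 7 at an unadjusted p under 0.05 and 1 higher by DESeq2. Properdin, Cfp, had the smallest p of them (log2 fold change of 0.63 ± 0.16, adjusted p = 0.0589). The complement median was 0.15 without the 4 libraries with high atrial markers (3 at an unadjusted p under 0.05, none called by edgeR) and 0.20 without Mfn2AA heart 4 (4, none called). Without Mfn2AA heart 5 or tet-off heart 1, 2 complement genes were called higher, and 1 without Mfn2AA heart 2.

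**Figure D2:**
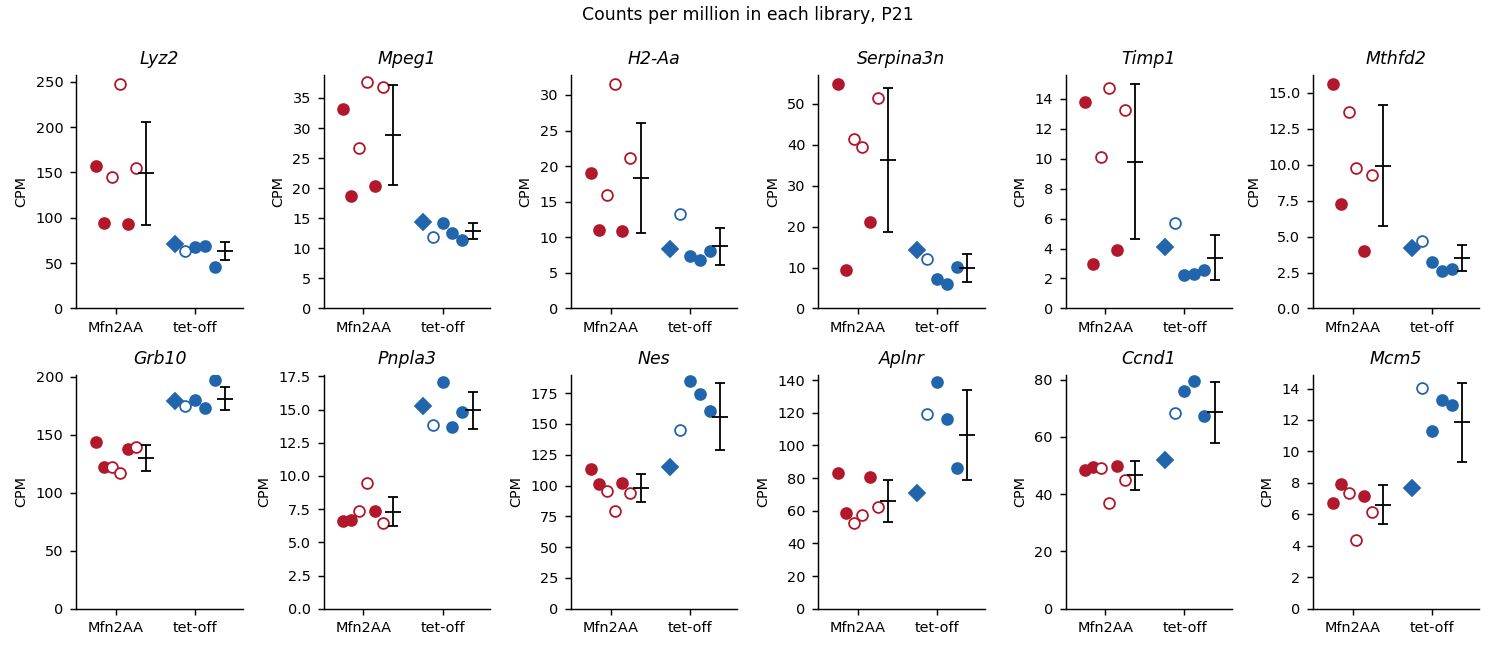
Levels of 12 called genes (CPM, linear axes from 0) in each P21 library, red for Mfn2AA (n = 6) and blue for tet-off (n = 5), with the mean and SD in black. The diamond is tet-off heart 1 and open symbols are the 4 libraries with high atrial markers. The upper row rose and the lower row fell. Lyz2, Mpeg1, Grb10, Pnpla3, Nes and Ccnd1 have groups that do not overlap.

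Mthfd2, a mitochondrial enzyme of one-carbon metabolism and a known target of the integrated stress response (chromosome 6, 83305704 to 83317604), stood at 15.6, 7.30, 13.7, 9.74, 3.98 and 9.28 CPM in the Mfn2AA hearts and 4.21, 4.70, 3.24, 2.63 and 2.73 in the tet-off hearts. Mfn2AA heart 5, the heart with the least transgene, was within the tet-off range, and the other 5 lay above it (log2 fold change of 1.47 ± 0.32, adjusted p = 0.0365, lost in 12 of 23 settings). Mfn2wt hearts had 50.9 ± 19.2 CPM (SD, n = 6), above both groups. It was the only call among 35 genes of the integrated stress response, whose median was 0.09, and it was not called without Mfn2AA heart 1, 3, 4 or 6 or tet-off heart 3, 4 or 5. Atf5, a transcription factor of that response, had a log2 fold change of 0.42 ± 0.11, adjusted p = 0.0612 and missed the threshold. Sord, sorbitol dehydrogenase of the polyol pathway, rose without overlap (113 to 157 against 75.0 to 108 CPM, log2 fold change of 0.60 ± 0.10, adjusted p = 0.00683). The p53 target Phlda3 rose by 0.53 ± 0.12 and the membrane protein gene Gpr137c by 1.03 ± 0.18, both without overlap (adjusted p = 0.0451 and 0.00683). Further rises were those of the calcium-binding protein gene Chp2 (1.42 ± 0.33), the G protein regulator Rgs17 (1.25 ± 0.29), the homeobox gene Meis2 (0.74 ± 0.17), the lipid transporter gene Abca6 (0.73 ± 0.17) and the linker histone Hist1h1c (0.43 ± 0.09).

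Apln, Aplnr, Nes, Prnd, Notch4 and Meox1 fell, a set picked from the calls. Apelin, Apln, is a peptide of sprouting endothelium, and Aplnr is its receptor. Apln was at 12.8, 16.3, 11.3, 9.81, 17.3 and 9.39 CPM in the Mfn2AA hearts and 14.5, 21.8, 27.8, 21.4 and 21.2 in the tet-off hearts and Aplnr at 83.1, 58.7, 52.3, 57.5, 80.8 and 62.4 CPM in the Mfn2AA hearts and 70.8, 119, 139, 116 and 86.2 in the tet-off hearts. For both, tet-off heart 1 lay inside the Mfn2AA range and the other 4 tet-off hearts above it (log2 fold change of -0.73 ± 0.17, adjusted p = 0.0455 and log2 fold change of -0.69 ± 0.16, adjusted p = 0.0446). Nes, the intermediate filament nestin, which marks growing capillaries and progenitors, stood at 113, 102, 95.4, 79.3, 102 and 94.3 CPM in the Mfn2AA hearts and 115, 145, 185, 174 and 160.3 in the tet-off hearts. The groups did not overlap (log2 fold change of -0.67 ± 0.13, adjusted p = 0.0139). Prnd, the prion-like protein doppel of young vessels, fell by 0.82 ± 0.18 on the log2 scale without overlap (5.91 to 7.67 against 7.96 to 14.8 CPM), and the endothelial receptor Notch4 by 0.60 ± 0.13 (78.1 to 123 against 121 to 177 CPM). Meox1, a homeobox factor, was at 17.9 to 22.6 against 17.2 to 37.5 CPM (log2 fold change of -0.65 ± 0.14, adjusted p = 0.0351). Of 20 general endothelial markers 0 were called by edgeR or DESeq2, with 5 at an unadjusted p under 0.05, and the median was 0.0047, with Vwf, the von Willebrand factor, at 183 to 369 against 77.7 to 180.2 CPM (log2 fold change of 0.97 ± 0.29, adjusted p = 0.115).

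Of 40 cell cycle genes tested, 2 fell, none rose, 35 had a negative fold change and the median was -0.23. Ccnd1, cyclin D1, which drives entry into the cell cycle, stood at 48.5, 49.5, 49.2, 37.0, 49.9 and 45.1 CPM in the Mfn2AA hearts and 51.9, 68.4, 76.0, 79.5 and 67.4 in the tet-off hearts. The groups did not overlap (log2 fold change of -0.56 ± 0.11, adjusted p = 0.0238, lost in 9 of 24 settings). Mcm5, a subunit of the helicase that unwinds replication origins, was at 6.75, 7.90, 7.37, 4.40, 7.19 and 6.15 CPM in the Mfn2AA hearts and 7.69, 14.0, 11.3, 13.3 and 12.9 in the tet-off hearts. Tet-off heart 1 lay inside the Mfn2AA range (log2 fold change of -0.83 ± 0.19, adjusted p = 0.0447). Other subunits missed the threshold, Mcm6 at 2.96 to 3.65 against 2.81 to 9.24 CPM (log2 fold change of -1.02 ± 0.28, adjusted p = 0.0871) and Mcm3 at 6.69 to 8.74 against 8.50 to 13.0 CPM (log2 fold change of -0.53 ± 0.14, adjusted p = 0.0657). Timeless, a protein of the replication fork, fell by 0.65 ± 0.15, and the kinase Plk2 by 0.47 ± 0.11 (adjusted p = 0.0488 and 0.0482). Without the 4 libraries with high atrial markers no cell cycle gene was called by edgeR, 4 had an unadjusted p under 0.05 and the median was -0.17. Both calls on the list were lost without Mfn2AA heart 4 or 6 or tet-off heart 3, 4 or 5 (8 to 11 at an unadjusted p under 0.05 by edgeR) and in a fit of the 11 libraries alone (11). There was 1 call without Mfn2AA heart 1 or 3 or tet-off heart 2, and 4 without tet-off heart 1. The median ran from -0.31 to -0.13, the latter without tet-off heart 2.

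Helicase genes are known targets of E2F factors, whose sites read TTTNGCGC, N being any base. The upstream sequences of Mcm5 and Mcm6 are shown because both hold such sites and their levels were lower in every Mfn2AA heart than in 4 of the 5 tet-off hearts. The capitals mark matches on either strand, which overlap in part.
Mcm5 (chr8:75109259-75109508, strand +): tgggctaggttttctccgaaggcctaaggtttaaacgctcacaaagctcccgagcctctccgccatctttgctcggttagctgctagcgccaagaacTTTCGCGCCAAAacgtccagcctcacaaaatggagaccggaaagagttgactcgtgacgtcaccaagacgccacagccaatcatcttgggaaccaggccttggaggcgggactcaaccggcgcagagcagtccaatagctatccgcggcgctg
Mcm6 (chr1:128359706-128359955, strand -): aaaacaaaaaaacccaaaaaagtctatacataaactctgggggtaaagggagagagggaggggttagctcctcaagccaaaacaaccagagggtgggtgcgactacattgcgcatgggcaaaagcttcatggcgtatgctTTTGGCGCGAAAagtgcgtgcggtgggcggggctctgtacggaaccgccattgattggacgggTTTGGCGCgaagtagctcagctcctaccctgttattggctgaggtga
The motif matched 1.13% of all 32851 promoters and 8.82% of 34 promoters of cell cycle genes, those of Cdk1, Mcm5 and Mcm6. A match is a stretch of letters in the reference strain and no measure of binding.

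Grb10, the imprinted adaptor that restrains insulin and growth factor receptors (chromosome 11, 11930499 to 12037420), stood at 143, 122, 122, 117, 138 and 139 CPM in the Mfn2AA hearts and 179, 175, 180.4, 173 and 198 in the tet-off hearts. All Mfn2AA hearts lay below all tet-off hearts, and tet-off heart 1 was among its own group (log2 fold change of -0.48 ± 0.07, adjusted p = 0.00159, lost in 3 of 24 settings). Pnpla3, a lipase of lipid droplets (chromosome 15, 84167816 to 84189521), was at 6.61, 6.69, 7.37, 9.45, 7.33 and 6.48 CPM in the Mfn2AA hearts and 15.3, 13.9, 17.1, 13.7 and 14.8 in the tet-off hearts. This fall was also free of overlap (log2 fold change of -1.02 ± 0.19, adjusted p = 0.0134, lost in 4 of 24 settings). Adamts14, which trims procollagen (chromosome 10, 61197112 to 61273438), was at 5.77, 7.45, 5.95, 7.94, 4.88 and 6.58 CPM in the Mfn2AA hearts and 9.57, 13.1, 11.8, 13.2 and 14.0 in the tet-off hearts. It had the smallest p of the falls (log2 fold change of -0.93 ± 0.13, adjusted p = 0.000686). Grb10 and Pnpla3 were the single calls on their lists, 1 of 28 insulin, IGF and imprinted genes (median 0.0016) and 1 of 34 genes of lipid droplets, lipases and lipid synthesis (median 0.07). Of 38 fatty acid genes none was called by edgeR, with 2 at an unadjusted p under 0.05, 1 lower by DESeq2 and a median of 0.0017. Slc38a2, an amino acid transporter, fell without overlap (133 to 196 against 233 to 291 CPM, log2 fold change of -0.52 ± 0.11, adjusted p = 0.0256).

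Fam212b, an inhibitor of a PAK kinase, was at 53.9, 51.0, 56.6, 41.4, 57.3 and 51.8 CPM in the Mfn2AA hearts and 57.7, 89.3, 89.8, 95.7 and 96.6 in the tet-off hearts. It lay lower in every Mfn2AA heart, narrowly for tet-off heart 1 (log2 fold change of -0.72 ± 0.12, adjusted p = 0.00571). The tubulins Tubb2b and Tubb5 fell, Tubb2b at 1.27, 3.95, 2.64, 2.16, 3.21 and 1.62 CPM in the Mfn2AA hearts and 2.94, 7.81, 6.63, 6.83 and 6.79 in the tet-off hearts and Tubb5 at 183, 185, 184, 159, 169 and 155 CPM in the Mfn2AA hearts and 184, 256, 244, 247 and 241 in the tet-off hearts. In both, tet-off heart 1 was the only tet-off heart inside the Mfn2AA range (log2 fold change of -1.27 ± 0.24, adjusted p = 0.0182 and log2 fold change of -0.44 ± 0.10, adjusted p = 0.048). Falls without overlap were those of the kinase Nuak1 (-0.58 ± 0.10), the pseudokinase Trib1 (-0.52 ± 0.12), the tetraspanin Tspan9 (-0.49 ± 0.10), the lectin Lgals9 (-0.55 ± 0.11), the membrane adaptor Efr3b (-0.51 ± 0.10), the Rac activator Tiam2 (-0.64 ± 0.14) and Nckap5 (-0.89 ± 0.18). Adjusted p-values of these 7 ran from 0.00683 to 0.0455. The phosphatase Dusp8 (-0.73 ± 0.15), the growth factor Hbegf (-0.48 ± 0.11) and the splicing factor Sfpq (-0.39 ± 0.08) were also lower.

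Interferon-stimulated genes, which type I interferon switches on in virus defence, had no call. Of 32 tested, 0 passed with edgeR, 31 had a negative fold change, 25 had an unadjusted p under 0.05, 5 were lower by DESeq2 and the median was -0.53. Rsad2, the antiviral viperin, was at 11.1, 13.8, 11.1, 9.88, 12.3 and 11.3 CPM in the Mfn2AA hearts and 10.6, 22.8, 19.4, 19.9 and 17.6 in the tet-off hearts. Ifit1, which binds viral RNA, was at 0.985, 1.82, 2.37, 1.95, 1.26 and 1.94 CPM in the Mfn2AA hearts and 2.27, 4.37, 3.46, 3.38 and 2.49 in the tet-off hearts. In both genes 4 tet-off hearts lay above every Mfn2AA heart and tet-off heart 1 lay within their range (log2 fold change of -0.63 ± 0.15, adjusted p = 0.0552 and log2 fold change of -0.86 ± 0.23, adjusted p = 0.0817). Summed levels were 326, 310, 342, 347, 295 and 324 CPM in Mfn2AA hearts and 340, 720, 429, 402 and 427 in tet-off hearts. Without tet-off heart 1, 9 of 33 were called, all lower, with a median of -0.59, and without tet-off heart 2 0 of 33 were called by edgeR, 15 had an unadjusted p under 0.05 and the median was -0.31. Without the 4 libraries with high atrial markers 0 of 33 were called by edgeR, 15 had an unadjusted p under 0.05 and the median was -0.41.

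Many interferon-stimulated genes carry a response element, here GAAA, any 2 bases and GAAA on either strand. The upstream sequences of both genes with the smallest p of the list are shown with the element in capitals (it reads TTTC, any 2 bases and TTTC on the strand shown).
Rsad2 (chr12:26456453-26456702, strand -): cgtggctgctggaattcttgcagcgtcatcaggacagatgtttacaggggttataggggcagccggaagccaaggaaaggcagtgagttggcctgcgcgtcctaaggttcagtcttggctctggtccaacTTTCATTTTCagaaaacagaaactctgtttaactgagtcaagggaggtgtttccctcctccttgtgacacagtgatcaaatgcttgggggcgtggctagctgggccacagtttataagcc
Ifit1 (chr19:34640639-34640888, strand +): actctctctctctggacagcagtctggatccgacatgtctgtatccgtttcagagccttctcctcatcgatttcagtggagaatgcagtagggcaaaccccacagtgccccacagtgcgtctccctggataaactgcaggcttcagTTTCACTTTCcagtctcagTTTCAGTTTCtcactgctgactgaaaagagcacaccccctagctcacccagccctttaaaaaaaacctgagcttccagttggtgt
The element occurred in 12 of 29 promoters of the list (41.4%) and in 2.98% of all promoters. Among called genes, it was present for Ctss and Olfr45, which rose, and for Lgals9 and Plk2, which fell.

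Chaperones of the endoplasmic reticulum, which fold secreted proteins, had 1 call among 26, Hyou1 (chromosome 9, 44379490 to 44392369), with 22 negative and a median of -0.16. Hyou1 stood at 65.8, 56.2, 64.0, 49.0, 63.1 and 58.2 CPM in the Mfn2AA hearts and 80.1, 84.2, 81.8, 64.8 and 95.9 in the tet-off hearts (log2 fold change of -0.46 ± 0.10, adjusted p = 0.0446). Tet-off heart 4 lay within the Mfn2AA range. The secreted factor Manf was at 33.8, 32.9, 32.2, 43.6, 29.2 and 38.3 CPM in the Mfn2AA hearts and 34.5, 63.2, 58.1, 61.8 and 52.7 in the tet-off hearts and uncalled (log2 fold change of -0.63 ± 0.16, adjusted p = 0.0569), and the disulfide isomerase Pdia4 at 23.9 to 33.6 against 31.9 to 49.7 CPM (log2 fold change of -0.38 ± 0.10, adjusted p = 0.0765). Without tet-off heart 1, 7 of 27 chaperone genes were called lower, with a median of -0.19. Without any other single library but Mfn2AA heart 5 or tet-off heart 4 none was called by edgeR, with 8 to 12 at an unadjusted p under 0.05.

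Genes of the mitochondria themselves and of the contractile apparatus showed few calls. No gene of the fusion and fission list (22 tested, median 0.04), complex I (36, -0.07), complexes II to IV (27, -0.08), ATP synthase (17, -0.08) or the mitochondrial genome (13, -0.23) was called by edgeR or DESeq2. Of all their members 1 had an unadjusted p under 0.05, in complex I. Without tet-off heart 1, 1 complex I gene was called lower. Against nontransgenic hearts, where 6.73% of all genes tested were called, 9 of 13 mitochondrially encoded genes were called lower in Mfn2AA hearts, with a median of -0.81. In that setting 1 of 27 genes of complexes II to IV was called lower, and 0 of complex I or ATP synthase. Summed mitochondrially encoded genes ran from 28328 to 36469 CPM in Mfn2AA hearts and from 23551, in tet-off heart 1, to 46272 in tet-off hearts. Of 19 fetal sarcomere isoforms 1 fell, and the median was -0.32. Tnni1, the slow troponin I of the fetal heart (chromosome 1, 135799421 to 135810989), was at 0.844, 0.608, 2.30, 1.73, 1.12 and 1.08 CPM in the Mfn2AA hearts and 1.61, 6.21, 0.216, 48.4 and 49.4 in the tet-off hearts. It was far higher in tet-off hearts 4 and 5 than in any other heart (log2 fold change of -3.98 ± 0.77, adjusted p = 0.0182). Tet-off heart 2, at 6.21 CPM, was above the Mfn2AA range, tet-off heart 1 inside and tet-off heart 3 below it. The call was lost without either of the high libraries (adjusted p up to 0.0693) or without Mfn2AA hearts 4 or 6. Smooth muscle and mural markers had 15 of 15 negative fold changes with no call by edgeR or DESeq2, 3 at an unadjusted p under 0.05 and a median of -0.31 (-0.042 without tet-off heart 1), and Acta2, smooth muscle actin, was at 555 to 781 against 593 to 1589.9 CPM (log2 fold change of -0.69 ± 0.22, adjusted p = 0.145). Fibroblast markers had no call by edgeR or DESeq2, with 3 at an unadjusted p under 0.05, and a median of 0.11.

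**Figure D3:**
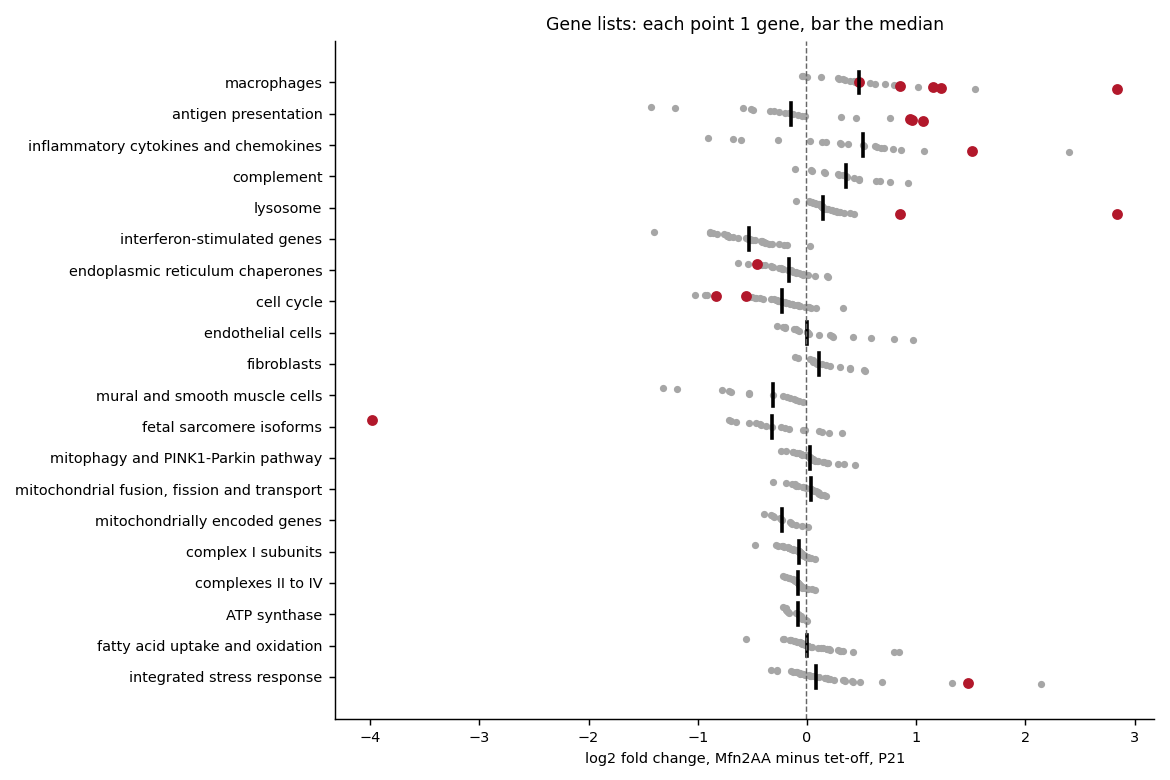
Log2 fold change of each tested gene (points) in 20 gene lists, Mfn2AA minus tet-off at P21, called genes in red, black bars at the list medians and the dashed line at the median of all genes tested (-0.0063). Macrophage and complement genes lie to the right, interferon-stimulated genes to the left at a median of -0.53, and the mitochondrial lists hold no called gene.

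Several called genes lay within 2 Mb of another called gene. The share of all genes tested with such a neighbour was not computed, so these groups are given as positions only. On chromosome 7 the olfactory receptor genes Olfr45 (140690907 to 140691842) and Olfr541 (140704253 to 140705191) and the secretoglobin gene Scgb1c1 (140845565 to 140846769) all rose, and Dusp8 (142079487 to 142095284) fell. Olfactory receptors detect odours in the nose. Olfr541 was at 25.9, 22.4, 32.4, 34.1, 20.0 and 38.2 CPM in the Mfn2AA hearts and 1.67, 0.0840, 0.144, 0 and 0 in the tet-off hearts (log2 fold change of 6.08 ± 0.61, adjusted p = 4.99e-06), and was called in all 24 alternative settings. Olfr45 had 79 reads over the Mfn2AA hearts and 0 over the tet-off hearts, at least 24.0-fold higher against a floor of 3 counts over the tet-off group. Scgb1c1 was at 17.3, 14.9, 14.2, 20.1, 15.8 and 16.1 CPM in the Mfn2AA hearts and 9.43, 3.11, 8.28, 6.75 and 5.38 in the tet-off hearts (log2 fold change of 1.30 ± 0.18, adjusted p = 0.000408). For these 3 genes the groups did not overlap, and tet-off heart 1 was the highest tet-off heart for Olfr541 and Scgb1c1.

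On chromosome 17, 8 called genes lay in chains of neighbours within 2 Mb, Ergic1, Ip6k3, Myo1f, H2-Ab1, H2-Aa, Notch4, Tubb5 and C920025E04Rik, from 26561512 to 36111676, 4 higher and 4 lower. This stretch holds the major histocompatibility complex, whose class I gene H2-T23, described above, lies between Tubb5 and C920025E04Rik. C920025E04Rik was at 8.72, 7.45, 5.48, 9.02, 9.14 and 6.04 CPM in the Mfn2AA hearts and 7.16, 1.93, 1.66, 2.03 and 4.81 in the tet-off hearts, with tet-off heart 1 inside the Mfn2AA range (log2 fold change of 1.10 ± 0.26, adjusted p = 0.04998). On chromosome 18 Smim3, which encodes a small membrane protein, Cd74 and Csf1r rose between 60474191 and 61131139. Smim3 was at 11.8, 14.1, 12.4, 16.5, 17.7 and 16.4 CPM in the Mfn2AA hearts and 12.2, 2.18, 1.15, 1.95 and 1.57 in the tet-off hearts: tet-off heart 1 had the level of the Mfn2AA hearts and the other 4 tet-off hearts far less (log2 fold change of 1.93 ± 0.37, adjusted p = 0.0182). On chromosome 9 Trf and Tmem108 rose and Rab6b fell, and on chromosome 1 Arl8a and Phlda3 rose beside Tnni1. Csf2rb and Cbx7 on chromosome 15 both rose.

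Tet-off heart 1 was the tet-off heart nearest the Mfn2AA mean for 49 of the 78 called genes (62.8%), 24 higher and 25 lower, against 22.3% of all genes tested. For 31 of the 78 its level lay inside the Mfn2AA range. Principal components, axes of spread over all genes tested, were also computed for the 11 libraries. On the second (20.1% of the variance) tet-off heart 1 was at 19.2, Mfn2AA hearts at 3.87 to 12.6 and the other tet-off hearts at -24.9 to -8.74. On the first (30.4%) the ranges of the groups overlapped. The other tet-off hearts were nearest for 15 (tet-off heart 2), 5, 6 and 3 genes. Tet-off heart 1 shares its title number with the Mfn2AA hearts and held more human transgene than the other controls, and the part of either in these values was not tested. All other tet-off hearts carry a different number. Beyond this 1 heart, genotype and title number thus cannot be told apart in the calls. High atrial markers were seen in 3 Mfn2AA hearts and 1 tet-off heart. Without these 4 libraries 4 genes were called (2 higher, 2 lower), 3 of them among the 78, Olfr541, Scgb1c1 and Adamts14, with 3 hearts against 4. With the log2 atrial sum as a term in all libraries 128 were called (55 higher, 73 lower), 73 of them among the 78. In both settings every one of the 78 with a value kept its direction, 76 of 76 and 78 of 78.

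The remaining P21 groups give a further reference. These comparisons share hearts with the first, so values are given side by side. Against nontransgenic hearts Mfn2AA hearts differed in 914 genes (6.73%), and 51 of the 78 were called in the same direction, 30 higher and 21 lower. Tet-off hearts differed from nontransgenic hearts in 222 genes (1.63%), among them 12 of the 78: 1700001O22Rik, C920025E04Rik, Tmem108, Prnd, Trib1, Nuak1, Notch4, Tiam2, Banp, Adamts14, Rab6b and Tnni1. Notch4 was at 121, 161, 169, 177 and 142 CPM in tet-off hearts, 78.1 to 123 in Mfn2AA and 71.9 to 108 in nontransgenic hearts. Tet-off minus nontransgenic was 0.85 for Notch4, 0.68 for Nuak1, 1.31 for Rab6b and 3.74 for Tnni1, while Mfn2AA minus nontransgenic was 0.25, 0.09, -0.09 and -0.24, none of them called. For Lyz2, Cd74 and H2-Aa, Mfn2AA minus nontransgenic was 1.16, 1.11 and 1.19, all called, and tet-off minus nontransgenic -0.07, 0.15 and 0.12, none called.

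Mfn2wt hearts, with the unmutated protein and a transgene level of 1588 ± 143 FPKM (SD, n = 6), differed from Mfn2AA hearts in 1862 genes (13.7%). Mfn2AA minus Mfn2wt was 1.15 for Lyz2, 1.12 for Cd74, 3.03 for Gpnmb, -0.94 for Nes and -1.19 for Apln, all called and in the direction seen against tet-off. Pnpla3 differed there by 0.17 ± 0.19 and was not called, and Mthfd2 stood the other way, at -2.39 ± 0.26 (adjusted p = 1.53e-06). The lines differ in the residues, in transgene level and in title number, which cannot be told apart. No Mfn2wt or nontransgenic P21 library carries the title number of the Mfn2AA libraries.

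At P1 and 5 weeks the same genotypes were compared in other hearts. At P1 (3 Mfn2AA, 5 tet-off, whole heart) 1 of 14610 genes was called (0.00684%), and it was Olfr541. At 5 weeks (4 Mfn2AA, 3 tet-off, left ventricle) 6466 were called (44.3%), and among the 78 genes of P21 47 were called, 29 of them in the P21 direction. The change between P21 and P1 was called for 0 genes by edgeR (0%), with 862 at an unadjusted p under 0.05 and 5 called by DESeq2. The change between P21 and 5 weeks was called for 5002 genes (34.2%), 49 of the 78 among them. The 78 were picked by their P21 values, which enter this test, so the share of all genes is no fair reference for them. Each age was its own library batch, so a batch that acts alike on both genotypes cancels in the tests of change with age. The Y-linked gene Eif2s3y was at 0 to 29.2 CPM in Mfn2AA and 19.7 to 27.0 in tet-off hearts at 5 weeks. At P21 it was at 0 to 14.6 and 0 to 10.1 CPM (both scaled over all ages). The mix of sexes thus differed between the groups at 5 weeks and between the ages. At P21 the means of Eif2s3y were 2.59 CPM in Mfn2AA and 2.15 in tet-off hearts. Its log2 fold change at P21 was 0.37 ± 1.46 (adjusted p = 0.961 by edgeR). The part of sex was not tested.

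Lyz2, Mthfd2, H2-Aa and Cd74 differed in the same direction at both later ages without a called change. Lyz2 had a mean of 151 ± 56.4 CPM (SD, n = 6) against 64.1 ± 10.2 (n = 5) at P21 and 182 ± 54.1 (n = 4) against 50.2 ± 24.0 (n = 3) at 5 weeks, scaled over all ages. At P1 it was 9.10 ± 0.759 (n = 3) against 9.64 ± 1.93 (n = 5). Timp1 differed more at 5 weeks, with 64.8 ± 42.2 CPM against 3.72 ± 1.66, a change from 5 weeks to P21 of -2.63 ± 0.66 (log2, adjusted p = 0.00149). Mcm5, Tubb2b and Sord turned direction. Mcm5 was at 19.9 ± 5.55 CPM in Mfn2AA and 7.69 ± 1.09 in tet-off hearts at 5 weeks, and Tubb2b at 18.2 ± 2.61 against 3.83 ± 1.45, both above the controls where they had been below at P21. Sord, higher in Mfn2AA hearts at P21, was lower at 5 weeks, at 46.2 ± 9.10 against 134 ± 33.4. The change was -2.21 for Mcm5, -3.53 for Tubb2b and 2.14 for Sord, each called. Pnpla3 was lower at both ages (-1.02 and -1.13).

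**Figure D4:**
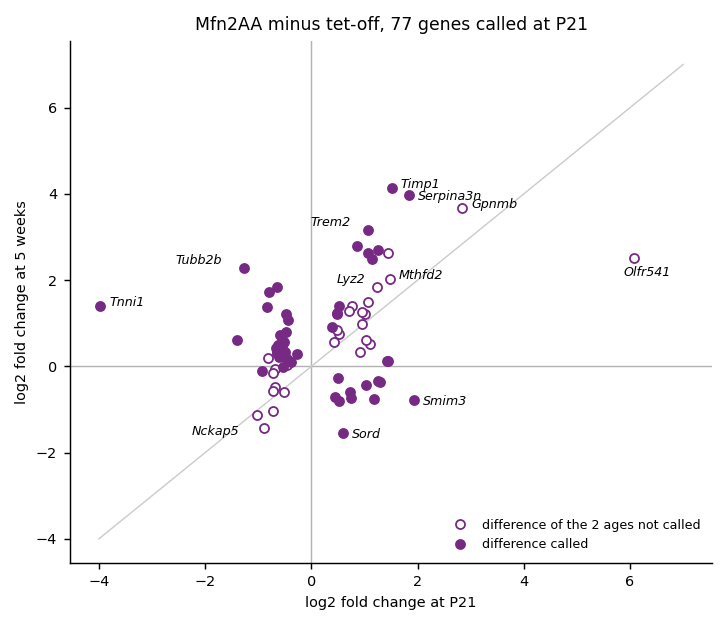
Log2 fold change of Mfn2AA minus tet-off at 5 weeks (vertical axis) against that at P21 (horizontal axis) for 77 of the 78 genes called at P21, each point 1 gene, Olfr45 left out because its tet-off libraries had no reads. Filled points have a called difference between the 2 ages, and the grey diagonal marks equal change. Timp1 and Serpina3n lie above the diagonal, and Tubb2b and Sord lie on opposite sides of 0 at the 2 ages.

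Over the 11 libraries the genes whose log2 CPM ran most like that of Lyz2 were Mpeg1 (Pearson r = 0.965), Hexa (0.955) and Cd300lb (0.950). For Mthfd2 they were the leukocyte integrin Itgb2 (0.940), Csf2rb (0.933) and the pseudogene Hmga2-ps1 (0.927). These are descriptions over libraries that share the difference between the groups.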

How the data were processed

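Gene counts per library were deposited by the authors as a table of whole reads, and FPKM values as a companion table that also lists the human transgene. The annotation the authors deposited gives base positions of exons, used for gene positions only. The submitters' processing notes name mm10, TopHat2 2.0.10, Bowtie2, HTSeq, DESeq, edgeR and Cufflinks 2.1, with no settings for the single steps. Total counts of the 23 P21 libraries ran from 5292335 to 24339146, of which the ribosomal precursor Rn45s took 1.98 to 7.66%.

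Counts of all 23 P21 libraries, in 4 genotype groups, were tested together with edgeR 4.0.16 (R 4.3.3, TMM scaling, its filter on low counts, quasi-likelihood test, Benjamini-Hochberg adjustment over 13585 genes, threshold 0.05). Changes with age came from 1 fit of the 12 groups of all ages. The transgene was tested on log2(FPKM + 1) by an exact permutation test. Alternatives used DESeq2 1.42.0, limma 3.58.1 on FPKM and other filters, scalings and samples. The procedure was also run on simulated counts. These held no differences by title number or atrial tissue, so that run does not bear on the shifts seen with single libraries. Promoters were 250 bases upstream of RefSeq start sites, and figures were drawn with matplotlib 3.10.9.

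Members and lists were chosen with earlier results of these data known. Genes named were the transgene, Mfn2, Pink1 and Park2; the 15 greatest rises and falls at 1 CPM or more without overlap; called list members and the 2 uncalled members of a list with the smallest p; called neighbours within 2 Mb; and the 3 genes most alike to Lyz2 and to Mthfd2. Not all of them are described, and other called genes in the text were chosen after their values were seen.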

Additional observations from a re-analysis of the deposited data

Results flagged for a closer look

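A heart far from the others of its group was found in 17 of 221 sets of values examined, where chance gives about 5%. The sets share libraries, and many of their genes were chosen by their group values, so that 5% is no fair reference. In 6 of the 17 it was tet-off heart 1. That library was highest of its group for the human transgene (362 FPKM), Smim3 (12.2 CPM) and Olfr541 (1.67 CPM), and lowest for Tubb5 (184 CPM), Fam212b (57.7 CPM) and Tubb2b (2.94 CPM), each towards the Mfn2AA hearts. Tet-off heart 2 was highest for the atrial sum (11929 CPM), the interferon sum (720.1 CPM), H2-Aa (13.3 CPM) and Gpnmb (1.01 CPM), and tet-off heart 3 for Spp1 (0.864 CPM). Mfn2AA heart 4 was lowest for Ccnd1 (37.0 CPM) and Slc38a2 (133 CPM) and highest for Hexa (69.2 CPM) and Pnpla3 (9.45 CPM). Gm14446 was 3.24 CPM in Mfn2AA heart 6 and Cbx7 19.5 CPM in Mfn2AA heart 5.

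The difference between genotypes changed with age for 20 of the 30 greatest rises and falls without overlap, by edgeR at an adjusted p under 0.05. As P21 minus 5 weeks on the log2 scale, it was -2.09 for Trem2, -1.44 for Dpep2, -1.33 for Mpeg1, -0.87 for Phlda3, -0.77 for Csf1r and -0.73 for Rab3il1, which rose at P21. It was 1.30 for Chp2, 1.47 for Gpr137c, 1.68 for Scgb1c1 and 2.14 for Sord, which also rose at P21. Among genes that fell at P21, it was -1.31 for Nuak1, -1.13 for both Tiam2 and Lgals9, -1.11 for Nes, -1.07 for Slc38a2, -1.02 for Ccnd1, -0.83 for Tspan9, -0.82 for Adamts14, -0.78 for Trib1 and -0.67 for Grb10. Of all genes tested 34.2% changed so. The 30 genes were picked by their P21 differences, which enter this test, so that share is no fair reference for them.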

How the results depend on the processing

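The 78 calls became 86 with RLE scaling, 87 without a filter, 65 at 10 CPM or more, 68 with 12 groups and 87 without Rn45s and mitochondrial genes. They became 243 with DESeq2, 50 and 41 with limma on FPKM plus 1 or 0.1, 19 in a fit of the 11 libraries alone and 914 against nontransgenic hearts. Leaving out single libraries gave 10 to 395 calls, with each library's count above where it moved by over 1.5 times. With the title number as a replicate block 23 genes were called (1 higher, 22 lower), 1 of them among the 78. The block took the medians of cell cycle genes to 0.057 and of interferon-stimulated genes to 0.031 (no gene of either called, or at an unadjusted p under 0.05, by edgeR). It took those of antigen presentation to 0.20, ER chaperones to 0.0011, complement to 0.17, macrophages to 0.67 and mural markers to -0.61. It called 4 mural markers lower, and no gene of the macrophage (15 at an unadjusted p under 0.05), lysosome (7), antigen presentation (5), chaperone (2) or complement (3) lists. Only 1 tet-off library shares the number of the Mfn2AA libraries and the labels do not say that it pairs them, so this fit compares it alone with them within its number. Of 2 alternatives chosen after seeing the data, leaving out the 4 libraries with high atrial markers gave 4 calls, and the atrial sum as a term 128. The change from P1 to P21 was called for 5 genes with DESeq2 and for 0 to 7 with single libraries left out (7 without tet-off heart 1, 1 without tet-off heart 3 or tet-off heart 5), and that from P21 to 5 weeks for 4186 to 5127. The transgene difference was 7.79 with a pseudocount of 0.1 and 7.27 to 8.67 with single libraries left out.

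Fold changes turned sign against nontransgenic hearts for C920025E04Rik (-0.10), 1700001O22Rik (-0.18), Park2 (-0.077), Nuak1 (0.092), Notch4 (0.25), Tiam2 (0.074), Banp (0.040) and H2-T23 (0.70). Under the block they turned for H2-D1 (-0.12), Mfn2 (-0.085), Park2 (-0.047), Manf (0.019), Rsad2 (0.13), Banp (0.15), Meox1 (0.19), Mcm6 (0.27) and H2-T23 (0.71). Park2, near 0, also turned with limma on FPKM plus 0.1 (-0.0037), without Mfn2AA heart 3 or Mfn2AA heart 5 or tet-off heart 2 or tet-off heart 3 (-0.058 to 0.10 over all single libraries left out), and without the 4 libraries (-0.053). The cause was not tested in any of these. Depth limits genes near 1 CPM, such as Gpnmb and Tnni1, where a few reads set a library's value.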

Other observations

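Lists not described in the report gave these values between Mfn2AA and tet-off hearts at P21. Cytosolic heat shock proteins, which refold proteins after stress, had no call among 21 by edgeR or DESeq2, 18 negative fold changes, 6 at an unadjusted p under 0.05 and a median of -0.14, which was -0.055 without the 4 libraries with high atrial markers and 0.022 against nontransgenic hearts. Cholesterol synthesis and uptake genes had no call among 21 by edgeR or DESeq2, 19 negative, 4 at an unadjusted p under 0.05 and a median of -0.11. Their summed level of 233 to 259 CPM in Mfn2AA hearts lay below the 266 to 274 CPM of every tet-off heart. Nontransgenic hearts, at 247 to 300 CPM, overlapped both groups. Sums of antioxidant genes were also without overlap, but higher in Mfn2AA, at 3935 to 4627 against 3644 to 3895 CPM. The number of lists with such sums was not counted. Natriuretic and cardiac stress genes had no call among 24 by edgeR, 1 lower by DESeq2, 7 at an unadjusted p under 0.05 and a median of -0.05. Genes of adipocytes, a cell type of the fat around the heart, had no call among 8 by edgeR or DESeq2 and none at an unadjusted p under 0.05. Their median was 0.43, but -0.35 without Mfn2AA heart 4, -0.11 with the atrial sum as a term, -0.62 with the title number as a replicate block, 0.019 without the 4 libraries with high atrial markers and 1.29 without tet-off heart 1. Regulators of mitochondrial biogenesis had no call among 20 by edgeR or DESeq2, none at an unadjusted p under 0.05 and a median of 0.03. Ribosomal protein genes had no call among 43 by edgeR or DESeq2, 1 at an unadjusted p under 0.05 and a median of -0.02.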
